A study of Mus musculus with 4 samples.

Results

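The miR-221 and miR-222 rows were 4 of the 847 rows of a small RNA sequencing table of mouse macrophages, chosen by name alone: mmu-miR-221-3p, mmu-miR-221-5p, mmu-miR-222-3p and mmu-miR-222-5p, the arms of 2 hairpins. The table holds 4 libraries of macrophages from C57BL/6J mice with a labelled age of 6 to 8 weeks, sorted from bone marrow (BM) and from spleen, in normal mice and in mice with acute myeloid leukaemia (AML). The AML mice had received GFP+ cells of MLL-AF9 AML from other leukaemic mice, without irradiation, and their macrophages were taken on day 18; the protocol dates the other sort to day 0. MLL-AF9 is a fusion of the histone methyltransferase gene MLL with AF9 that drives AML, and the aim given is a comparison of leukaemia-associated macrophages with homeostatic ones. The sources used here give neither the sort markers nor the sex of the mice or how many stand behind a library. Each group is 1 library, so every difference is one between libraries, with no replicate check.

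miR-221 and miR-222 are a conserved microRNA (miRNA) cluster on the X chromosome, known to be cut from one primary transcript. Their 3p arms carry the same seed, the bases that pair with target messages, and repress Kit, the receptor of stem cell factor, and Cdkn1b (p27), an inhibitor of the cell cycle. In blood formation their decline accompanies erythroid maturation, endothelial cells express them, and in macrophages they are known to accumulate under prolonged endotoxin exposure and to target the chromatin remodeller Brg1 (Smarca4).

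RefSeq (GRCm38.p6) holds a mature sequence for 3 of the 4 rows. They are printed to show what the 3p arms share, 5′ to 3′, with the seed (bases 2 to 8) in capitals.
miR-221-3p: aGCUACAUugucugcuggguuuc
miR-222-3p: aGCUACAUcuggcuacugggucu
miR-221-5p: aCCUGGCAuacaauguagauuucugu
Both 3p arms are 23 bases long and share their first 8 bases, and 11 of the 23 positions match without gaps. Their seed GCUACAU pairs with AUGUAGC in a target, whereas the seed of miR-221-5p is CCUGGCA. Of all mature mouse entries in that table, 3 carry the seed GCUACAU, and the third, miR-1928, was not analysed here. The 2 hairpins follow, with the mature arms that RefSeq gives in capitals, to show where each 3p arm lies in its precursor.
Mir221: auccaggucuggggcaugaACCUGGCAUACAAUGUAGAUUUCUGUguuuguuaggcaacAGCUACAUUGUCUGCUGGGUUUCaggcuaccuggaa
Mir222: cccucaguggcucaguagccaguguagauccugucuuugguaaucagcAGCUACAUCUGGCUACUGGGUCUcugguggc
Mir221 lies at chrX:19146294-19146388 and Mir222 at chrX:19146893-19146971, both on the minus strand with 504 bases between them, so Mir222 comes first in the direction of transcription. In GENCODE M21 (GRCm38) 0 other genes overlap this stretch, and the nearest annotated gene upstream on the strand is the noncoding Gm14636, 10009 bases away. For the deposited counts, the sources used here name no build.

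Total counts per library lay between 180227 and 435492, with 505 to 680 rows detected. Levels are counts per 1000000 reads (CPM) of library sizes scaled by edgeR's TMM method, and brackets hold 95% exact intervals, which cover counting error only. The myeloid marker list had 7 of 7 members detected in every library, at 2.91% to 4.58% of reads. Its member miR-21a-5p had 8046 counts in normal BM, 6637 in AML BM, 5158 in normal spleen and 6877 in AML spleen, the most of the list except in normal spleen. The members were uneven, by the 2-fold rule given below. From normal BM to normal spleen 4 of 6 compared were higher and 2 lower, with a median log2 ratio of 3.04. Of all miRNAs compared there, 30.8% were higher and 35.5% lower. From normal to AML spleen 4 of 6 were lower and 1 higher, with a median of -1.50 (21.3% and 25% of all). From normal to AML BM 3 of 6 were higher and 0 lower, with a median of 1.16 (13.4% and 12% of all). miR-146a-5p, a brake on NF-kB signalling, had 437 counts in normal BM, 648 in AML BM, 6753 in normal spleen and 807 in AML spleen. In the same order miR-142a-3p had 31, 170, 1704 and 253 counts, and miR-142a-5p had 67, 173, 1047 and 213. The similar shares of the list thus hid large differences of its members. The part of these differences in the results below was not tested. The list's defining member miR-223-3p was thin, with 10 counts in normal BM, 12 in AML BM, 28 in normal spleen and 4 in AML spleen. The other arm of its hairpin, miR-223-5p, had more in every library, with 42, 149, 36 and 10 counts in the same order. Why was not tested. In RNA from many cells, fewer cells of a type and less RNA per cell cannot be told apart.

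The 3p arms were abundant in every library, and the ranking of the libraries differed between them. miR-222-3p was highest in the BM libraries, whereas miR-221-3p was highest in normal spleen, and both were lowest in AML spleen, except that miR-221-3p was lowest in normal BM (1715 CPM against 1773 CPM in AML spleen) when totals for scaling left out the 10 most abundant miRNAs. Within BM miR-222-3p exceeded miR-221-3p, and within normal spleen miR-221-3p exceeded miR-222-3p.

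miR-221-3p had 398 counts in normal BM, 667 in AML BM, 1291 in normal spleen and 318 in AML spleen. As levels these were 1919 CPM [1735 to 2117], 2379 CPM [2202 to 2566], 3293 CPM [3115 to 3477] and 1648 CPM [1472 to 1840] in the same order. Normal spleen thus stood highest and AML BM next, while the intervals of normal BM and AML spleen overlapped at the low end. The highest level was 1.998 times the lowest, and the row ranked between 40 and 65 among the rows of each library.

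miR-222-3p had 809 counts in normal BM, 1208 in AML BM, 937 in normal spleen and 291 in AML spleen. The levels were 3901 CPM [3637 to 4179], 4308 CPM [4069 to 4558], 2390 CPM [2239 to 2548] and 1508 CPM [1340 to 1692]. Both BM libraries stood above both spleen libraries, the intervals of the BM libraries overlapped, and those of the spleen libraries did not. The range was wider than for miR-221-3p, with a highest level 2.86 times the lowest, and ranks ran from 42 to 67.

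The summed reads of both 3p arms, which share the seed, were also followed. Reads of different miRNAs are not molar amounts, so this sum is one of reads and no measure of seed molecules. It was 5820 CPM [5497 to 6158] in normal BM, 6687 CPM [6388 to 6996] in AML BM, 5682 CPM [5449 to 5923] in normal spleen and 3156 CPM [2911 to 3417] in AML spleen. Under TMM scaling the normal libraries had overlapping intervals although their mixture of the arms differed, and AML spleen stood apart as the lowest. That overlap depended on the scaling. For normal spleen against normal BM the log2 ratio of the sum was 0.20 [0.10 to 0.30] with DESeq2 size factors. It was -0.19 [-0.29 to -0.09] on total counts, and 0.15 [0.05 to 0.25] when totals left out the 10 most abundant miRNAs. Each of these intervals excluded equality, with differing signs. As a share of reads the sum was 0.584%, 0.691%, 0.512% and 0.338% in the same order.

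**Figure D1:**
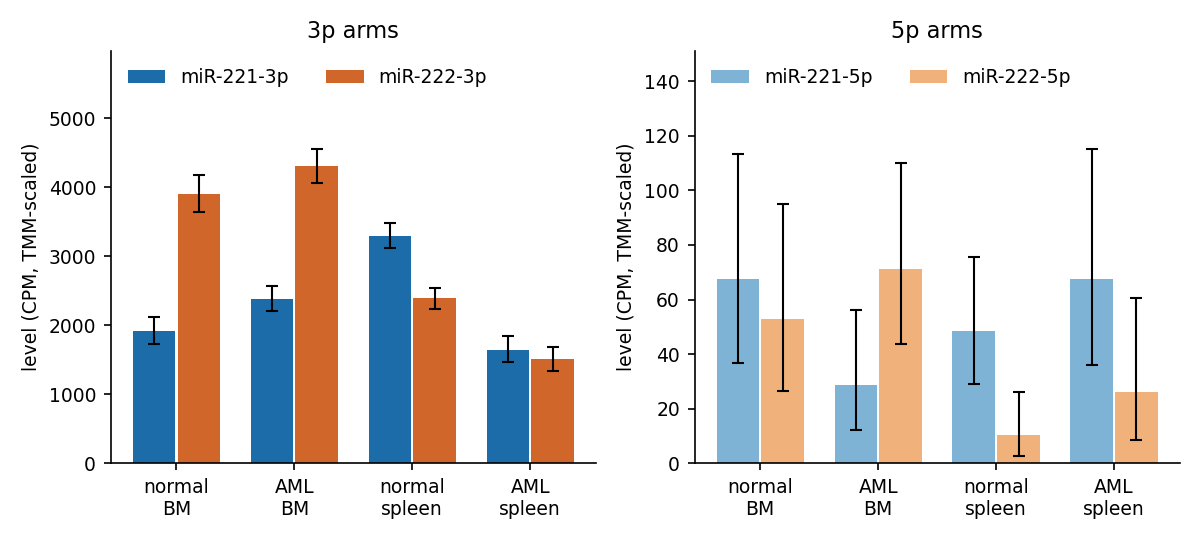
Level (CPM, linear axis from 0) of the 3p arms (left) and 5p arms (right) of miR-221 and miR-222 in the 4 libraries; each bar is 1 library and error bars are 95% exact Poisson intervals. miR-222-3p exceeds miR-221-3p in both BM libraries and lies below it in normal spleen, and both are lowest in AML spleen under TMM scaling, although miR-221-3p is lowest in normal BM when totals leave out the 10 most abundant miRNAs.

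The 5p arms, the lesser products of both hairpins, were near the limit of these depths. miR-221-5p had 14 counts in normal BM, 8 in AML BM, 19 in normal spleen and 13 in AML spleen. For miR-222-5p these were 11, 20, 4 and 5. Their levels lay between 10.2 and 71.3 CPM, and neither reached 30 counts, the minimum for a comparison.

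The 3p arm made up nearly all reads of each hairpin in every library. For miR-221 its share was 96.6% [94.4 to 98.1] in normal BM, 98.8% [97.7 to 99.5] in AML BM, 98.5% [97.7 to 99.1] in normal spleen and 96.1% [93.4 to 97.9] in AML spleen. For miR-222 it was 98.7% [97.6 to 99.3], 98.4% [97.5 to 99.0], 99.6% [98.9 to 99.9] and 98.3% [96.1 to 99.4] in the same order. These shares, exact binomial intervals included, overlapped between the libraries for miR-222. For miR-221 the share was lowest in AML spleen, where its interval overlapped narrowly with those of AML BM and normal spleen.

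The ratio of miR-222-3p to miR-221-3p is read within 1 library, so it needs no scaling between libraries. For the reason given for the sum, it is used here only to compare libraries. It was 2.03 [1.80 to 2.30] in normal BM and 1.81 [1.65 to 1.99] in AML BM. It was 0.726 [0.667 to 0.790] in normal spleen and 0.915 [0.778 to 1.08] in AML spleen. BM libraries thus had more reads of miR-222-3p than of miR-221-3p, normal spleen had fewer, and the interval of AML spleen included equality.

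The tissues differed in this ratio by more than the states did. From normal BM to normal spleen it was 2.80-fold lower, a log2 shift of -1.49 [-1.70 to -1.27]. From AML BM to AML spleen it was 1.98-fold lower, a log2 shift of -0.98 [-1.25 to -0.72]. Between AML and normal the shift was -0.17 [-0.39 to 0.05] in BM, within counting error, and 0.33 [0.07 to 0.59] in spleen. These shifts have normal-approximation intervals on log counts, which leave out variation between mice.

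The 5p arms come from the same hairpins but are separate reads, and their ratio was computed after the 3p values had been seen. The ratio of miR-222-5p to miR-221-5p was 0.786 [0.323 to 1.86] in normal BM, 2.50 [1.05 to 6.56] in AML BM, 0.211 [0.0521 to 0.633] in normal spleen and 0.385 [0.107 to 1.15] in AML spleen. Both spleen values were below both BM values, but they rest on 4 and 5 counts of miR-222-5p in normal and AML spleen. The exact intervals of both spleen ratios overlapped that of normal BM. The log2 shift from BM to spleen was -1.90 [-3.83 to 0.03] between the normal libraries, which included 0, and -2.70 [-4.60 to -0.80] between the AML libraries. Between AML and normal it was 1.67 [0.03 to 3.31] in BM and 0.87 [-1.28 to 3.02] in spleen. The BM interval, a normal approximation on counts of 8 to 20, barely excluded 0, and the exact intervals of both BM ratios overlapped. Counts this low cannot settle whether the 5p ratio differed between the BM libraries.

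**Figure D2:**
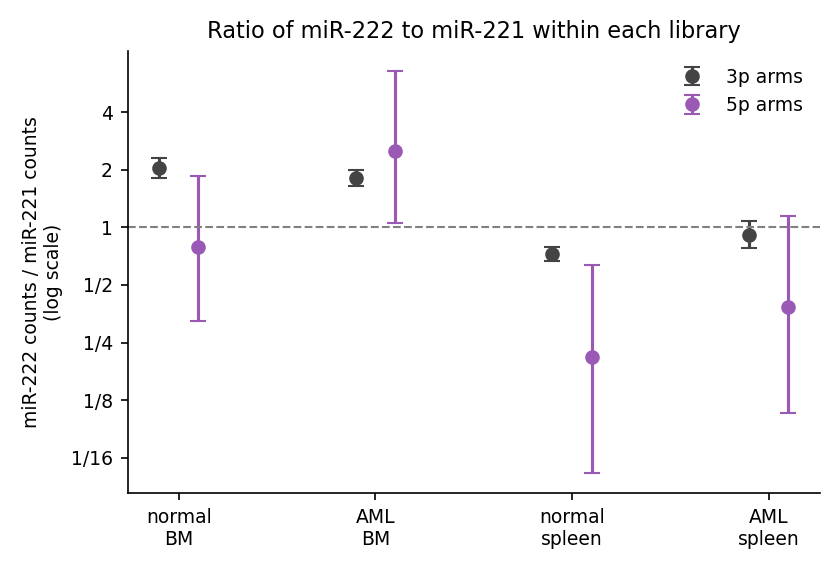
Ratio of miR-222 to miR-221 counts (log axis) within each of the 4 libraries for the 3p arms (grey) and the 5p arms (purple); bars are 95% exact intervals and the dashed line marks equality. The 3p ratio is 2.03 and 1.81 in the BM libraries against 0.726 and 0.915 in the spleen libraries.

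To set this shift beside other clusters, pairs of hairpins on 1 strand within 10000 bases were taken, with the more abundant arm of each and at least 30 counts in every library, a comparison also chosen after the values had been seen. There were 13 such pairs, some of which share a member, so they are not independent. The median absolute log2 shift between the tissues was 0.58 in the normal libraries and 0.59 in the AML libraries. In the normal libraries 2 pairs, counting miR-222-3p with miR-221-3p, had a shift at least as large as its 1.49 in size, the other being miR-20a-5p with miR-17-5p at -2.32. In the AML libraries 5 pairs, again counting miR-222-3p with miR-221-3p, had a shift at least as large as its 0.98 in size.

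In 8 of the 13 pairs the shift had the same sign in both states, as it did for miR-222-3p with miR-221-3p, and in 5 it did not, among them miR-20a-5p with miR-17-5p, at 0.40 in the AML libraries. Ranked by the smaller of both shifts, the miR-222-3p pair came first of those 8, followed by miR-93-5p with miR-25-3p at 0.80 in the normal and 1.17 in the AML libraries. It was the 1 pair of 13 whose order by reads differed between BM and spleen in both states. For AML spleen that order rests on a ratio whose interval included equality. A change of order also depends on how near 1 a ratio lies. Some pairs lay far from it, such as miR-200a-3p to miR-429-3p at 10.3 in normal BM. Reads are not molar amounts, so the order is one of reads only. This criterion and the ranking, like the pairs, were chosen after values had been seen.

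**Figure D3:**
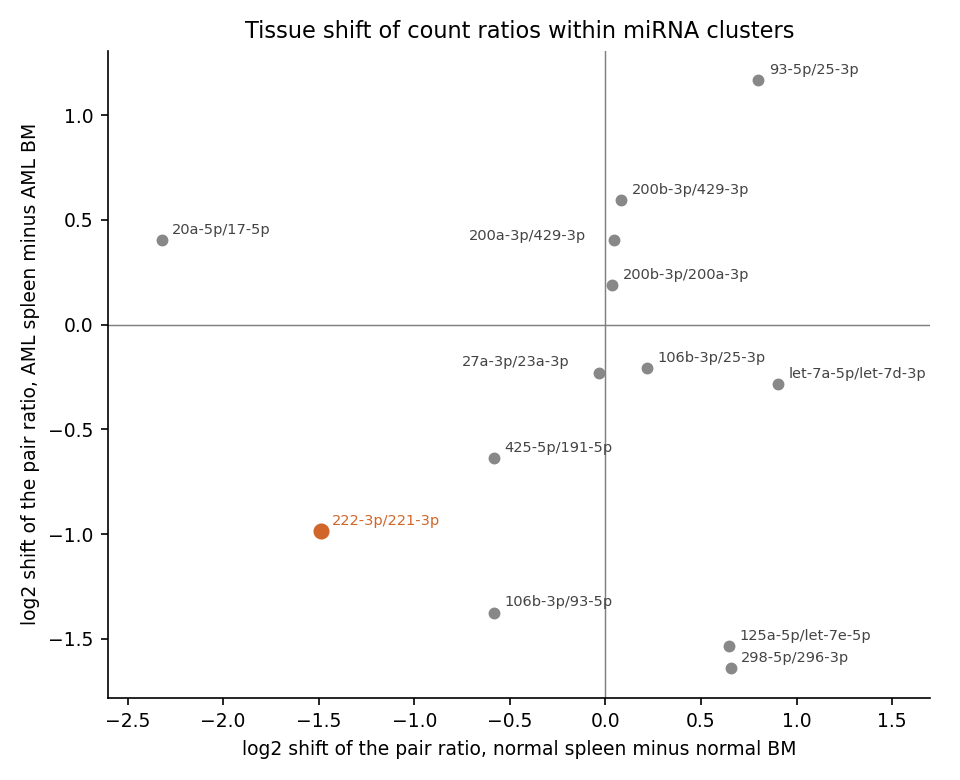
Log2 shift of the count ratio within 13 pairs of clustered miRNAs from BM to spleen, in normal libraries (horizontal) and in AML libraries (vertical); each point is 1 pair and the orange point is miR-222-3p over miR-221-3p. The orange point lies at -1.49 and -0.98, in the quadrant where the ratio is lower in spleen in both states.

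Between AML BM and normal BM the 3p arms stood close together. miR-221-3p was 1.24-fold higher in AML BM, at 0.31 [0.13 to 0.49] on the log2 scale, and miR-222-3p 1.10-fold higher, at 0.14 [0.01 to 0.27]. A miRNA was called different at a ratio of 2 or more either way, with an interval excluding equality and at least 30 counts in the larger library. Neither 3p arm was called, against 25.5% of the 216 miRNAs compared, whose median log2 ratio was 0.003. The calls were 29 higher (13.4%) and 26 lower (12%), which became 39 and 19 when the 10 most abundant miRNAs were left out of the totals used for scaling. The 5p arms, under the minimum, had log2 ratios of -1.24 [-2.70 to 0.11] for miR-221-5p and 0.43 [-0.70 to 1.64] for miR-222-5p.

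Between AML spleen and normal spleen both 3p arms were lower in the leukaemic library. For miR-221-3p the log2 ratio was -0.998 [-1.18 to -0.82], which at 1.998-fold fell just short of a call, and for miR-222-3p it was -0.66 [-0.86 to -0.47]. Their sum stood at -0.85 [-0.98 to -0.72], and at -1.09 [-1.22 to -0.96], a call, with DESeq2 size factors. Neither arm was called, against 46.3% of the 216 miRNAs compared, whose median was -0.25. Of all compared miRNAs, 22.2% had a ratio below that of miR-221-3p and 35.6% one below that of miR-222-3p.

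Whether miR-221-3p was called there depended on the scaling. With DESeq2 size factors its log2 ratio was -1.24 [-1.42 to -1.06], which is a call, and on total counts it was -0.75. The calls over all miRNAs, 54 higher (25%) and 46 lower (21.3%), became 51 and 68 with DESeq2 size factors. Scaled by total counts they were 64 and 36. These scalings moved all log2 ratios of this comparison by -0.24 and by 0.25, whereas the ratio of miR-222-3p to miR-221-3p does not depend on them. The 5p arms had log2 ratios of 0.48 [-0.66 to 1.57] for miR-221-5p and 1.34 [-0.87 to 3.68] for miR-222-5p, both within counting error of equality.

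Between the normal libraries the arms went opposite ways. In normal spleen miR-221-3p was 1.72-fold higher than in normal BM, at 0.78 [0.62 to 0.94] on the log2 scale, and miR-222-3p was 1.63-fold lower, at -0.71 [-0.84 to -0.57]. Their sum stood at -0.03 [-0.14 to 0.07], a sign that changed with scaling, to 0.20 [0.10 to 0.30] with DESeq2 size factors. Neither arm was called, against 66.2% of 234 miRNAs compared, 30.8% as higher and 35.5% as lower, with a median of 0.19. With DESeq2 size factors miR-221-3p reached 1.01 and was called. The calls over all miRNAs were 72 higher and 83 lower, but 86 and 78 under DESeq2's scaling. Scaled by total counts they were 59 and 84. Under the count minimum, miR-222-5p had 4 counts in normal spleen and 11 in normal BM and stood at -2.38 [-4.48 to -0.62], and miR-221-5p stood at -0.48 [-1.55 to 0.63].

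Between AML spleen and AML BM both 3p arms were lower in spleen, and miR-222-3p was called. Its level of 1508 CPM against 4308 CPM was 2.86-fold lower, a log2 ratio of -1.51 [-1.70 to -1.33]. miR-221-3p was 1.44-fold lower, at -0.53 [-0.73 to -0.33], and was not called. The sum of both stood at -1.08 [-1.22 to -0.95]. Of 211 miRNAs compared 35.1% were called in either direction and 21.3% as lower, with a median of -0.12, and 12.8% had a ratio below that of miR-222-3p. The 5p arms had log2 ratios of 1.24 [-0.14 to 2.72] for miR-221-5p and -1.46 [-3.23 to -0.003] for miR-222-5p.

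**Figure D4:**
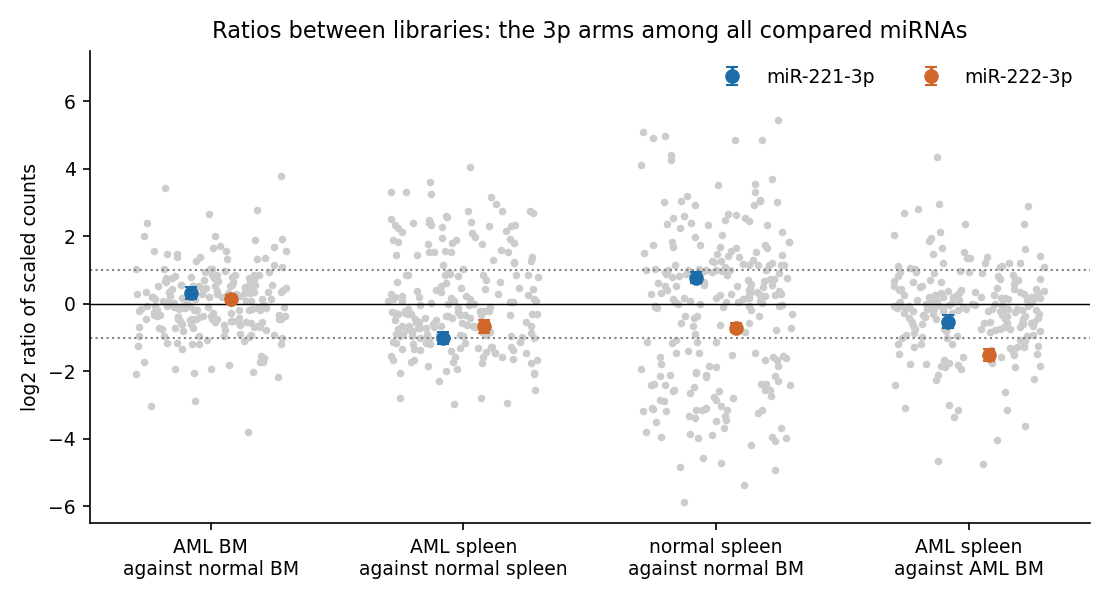
Log2 ratio of TMM-scaled counts in the 4 comparisons for miR-221-3p (blue) and miR-222-3p (orange) with 95% exact intervals, over all compared miRNAs (grey, 211 to 234 a comparison, spread sideways for visibility); dotted lines mark 2-fold. Of the 8 coloured points only miR-222-3p in AML spleen against AML BM, at -1.51, is called.

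The AML ratio had opposite signs in the tissues for both 3p arms. The spleen ratio minus the BM ratio was -1.31 [-1.56 to -1.06] on the log2 scale for miR-221-3p and -0.81 [-1.04 to -0.58] for miR-222-3p. The 5p arms, under the count minimum, had gaps of the other sign under TMM scaling. These were 1.72 [0.10 to 3.33] for miR-221-5p and 0.92 [-1.26 to 3.09] for miR-222-5p. Over the 186 miRNAs compared in both tissues the median of this gap was -0.38, and 28.5% lay below miR-221-3p and 42.5% below miR-222-3p. With 1 library a group the gap was not tested over mice.

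An additive model of tissue and state uses all 4 libraries and leaves 1 residual degree of freedom, so an AML effect that is unequal in BM and spleen enters it as noise. With edgeR's quasi-likelihood test the AML effect of miR-221-3p was -0.34 on the log2 scale (SE 0.97, adjusted p = 0.998) and that of miR-222-3p was -0.26 (SE 0.92, adjusted p = 0.998). The tissue effect, spleen over BM, was 0.13 (SE 0.97, adjusted p = 0.966) for miR-221-3p and -1.11 (SE 0.93, adjusted p = 0.758) for miR-222-3p. For the AML effect edgeR called 0% of 246 miRNAs and 0 had an unadjusted p under 0.05, and DESeq2 and limma called 0 as well. For the tissue effect edgeR and limma called 0, with 15 and 22 at an unadjusted p under 0.05, and DESeq2 called 12, neither 3p arm among them.

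Markers of other cells differed between the libraries too. From normal BM to normal spleen the endothelial list (both miR-126a arms) went from 0.597% to 0.0512% of reads, the stromal list of 5 from 2.60% to 0.277%, and the lymphocyte list of 5 from 1.62% to 9.54%. All members of these lists were detected in every library. Of the compared members 2 of 2 endothelial and 5 of 5 stromal miRNAs were lower in normal spleen, and 5 of 5 lymphocyte miRNAs were higher. Over all 234 miRNAs compared, 35.5% were lower and 30.8% higher. The muscle list of 3 went from 3.57% to 0.208% of reads, with 3 of 3 lower and a median log2 ratio of -3.96. Their part in the levels of miR-221-3p and miR-222-3p was not tested.

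Between the AML libraries some of these lists were nearer and others were not. In AML BM and AML spleen the endothelial list held 0.473% and 0.422% of reads and the stromal list 1.81% and 1.93%, with 0 of 2 and 0 of 4 compared members called. The lymphocyte list held 4.32% and 4.95%, mostly miR-181a-5p. Of its 5 members 3 were higher in AML spleen (miR-150-5p at 2.68 and miR-342-3p at 2.37 among them) and 1 was lower, with a median log2 ratio of 2.37, close to the 2.47 of normal spleen against normal BM. Over all miRNAs 13.7% were higher in AML spleen than in AML BM and 21.3% lower.

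The blast and progenitor list of 6 held 5.84% of reads in normal BM, 4.33% in AML BM, 0.815% in normal spleen and 4.07% in AML spleen. Most of these reads were of miR-10a-5p and miR-10b-5p, and the share was highest in normal BM. In AML BM against normal BM 0 of 6 were higher and 0 lower, with a median log2 ratio of -0.30 (13.4% and 12% of all). In normal spleen 6 of 6 members were lower than in normal BM, against 35.5% of all miRNAs. From normal to AML spleen 4 of 6 were higher and 1 lower (25% and 21.3% of all). The lower one was miR-196b-5p, with 34 counts in normal spleen and 5 in AML spleen (-1.74). In AML spleen against AML BM it stood at -4.75. The erythroid list of 5 held between 1.41% and 1.67% of reads, mostly the miR-486a arms. Its defining member miR-451a had 1063 counts in normal BM, 323 in AML BM, 186 in normal spleen and 355 in AML spleen. It was called lower in AML BM (-2.15) and normal spleen (-3.43) than in normal BM, and higher in AML spleen than in normal spleen (1.96). Between AML spleen and normal spleen, where both 3p arms were lower, 2 of 2 endothelial, 4 of 4 stromal and 3 of 3 muscle miRNAs were higher and 4 of 5 lymphocyte miRNAs lower. Over all miRNAs compared there, 25% were higher and 21.3% lower. The part of these markers in the ratio of miR-222-3p to miR-221-3p was likewise not tested.

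Among 11 other miRNAs of the endotoxin response, 7 were compared in each comparison. In AML BM against normal BM 2 were higher, 1 was lower and 4 were neither, where 13.4% of all miRNAs were higher and 12% lower. The list's median was -0.08, or 0.12 when totals left out the 10 most abundant miRNAs. In AML spleen against normal spleen 3 were higher and 2 lower, with a median of 0.86 beside -0.25 over all miRNAs (25% and 21.3% of all). The abundant miR-21a-5p, an oncogenic miRNA induced in inflammation, was higher in AML spleen at 1.44 while miR-146a-5p was lower at -2.04. The related miR-146b-5p stood at -0.72 and the neural and inflammation-linked miR-9-5p was higher at 2.57. The list, like the whole table, thus held calls of both signs between AML spleen and normal spleen, where both 3p arms were lower. In normal spleen against normal BM 2 were higher and 4 lower, with a median of -1.40 (30.8% and 35.5% of all miRNAs). In AML spleen against AML BM 1 was higher and 1 lower, with a median of 0.47 (13.7% and 21.3% of all).

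Position was shared with 64 other rows whose hairpins all lie on chromosome X. In AML spleen against AML BM 17 of these were compared, of which 1 was higher, 6 were lower and 10 were neither, with a median log2 ratio of -0.69 beside -0.12 over all miRNAs, of which 13.7% were called higher and 21.3% lower. In AML spleen against normal spleen 1 of 20 was higher and 7 were lower, with a median of -0.85 beside -0.25 (25% and 21.3% of all miRNAs). In AML BM against normal BM 4 of 19 were higher and 2 lower, with a median of 0.29 (13.4% and 12% of all). In normal spleen against normal BM, where the 3p arms went opposite ways, 8 of 22 were higher and 8 lower, with a median of 0.65 beside 0.19 (30.8% and 35.5% of all). The abundant miR-1198-5p had log2 ratios of -0.16, -0.31, 0.77 and 0.92 in these comparisons and miR-361-3p of 0.53, -0.87, 0.34 and 1.74. Rows miR-374b-5p and miR-374c-3p hold equal counts, so these reads enter the list more than once.

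The profiles of both 3p arms over the 4 libraries were set beside those of 143 other miRNAs with 30 counts or more in each library, by the root mean square difference of log2 levels centred on their mean. Nearest to miR-221-3p were miR-17-5p at 0.07, miR-25-3p at 0.09, miR-92a-3p at 0.17, miR-106b-3p at 0.19 and miR-320-3p at 0.22, where the median over all was 0.61. The first 4 have a hairpin in the miR-17~92 or the miR-106b~25 cluster, but miR-20a-5p and miR-93-5p of these clusters did not keep step with them. From normal BM to normal spleen the log2 ratio of miR-20a-5p to miR-17-5p shifted by -2.32 and that of miR-93-5p to miR-25-3p by 0.80. In the AML libraries these shifts were 0.40 and 1.17. Nearest to miR-222-3p were miR-1981-5p at 0.22, miR-676-3p at 0.25, miR-125a-5p at 0.32, miR-744-5p at 0.32 and miR-146b-5p at 0.32, with a median of 0.85. The 3p arms themselves differed by 0.63, which placed miR-222-3p at position 74 for miR-221-3p, and miR-221-3p at position 37 for miR-222-3p. With 4 points that share libraries this is a description.

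**Figure D5:**
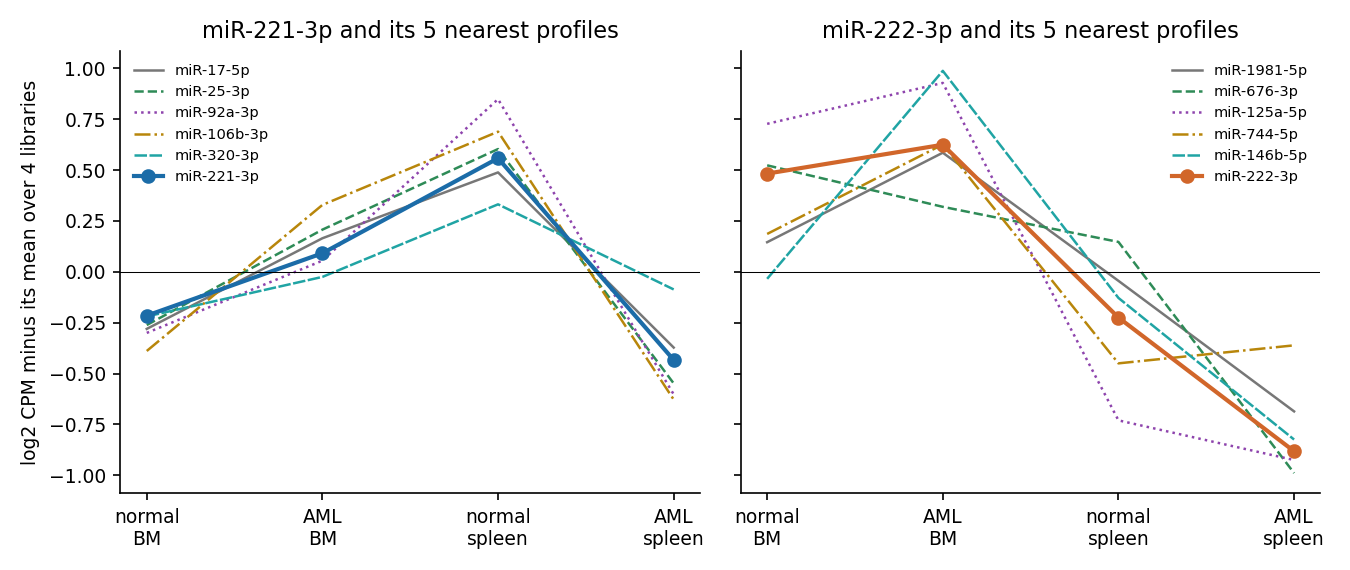
Log2 CPM minus its mean over the 4 libraries for miR-221-3p (left, blue) and miR-222-3p (right, orange) with the 5 nearest of 143 miRNAs each; each point is 1 library and lines only join the points of a miRNA. miR-221-3p peaks in normal spleen and miR-222-3p in AML BM, and both are lowest in AML spleen under TMM scaling, although without the 10 most abundant miRNAs in the totals, miR-221-3p is lowest in normal BM.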

How the data were processed

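Read counts per miRNA for 4 libraries were deposited by the authors, 1 library per group, assigned by sample title. The deposited TPM values, named so per the file headers, equalled count over library total times 1000000, and only the counts were analysed. The sources used here name no aligner, counting tool or annotation. Rows with names of predicted miRNAs held 0.0193% to 0.0915% of reads. Libraries were scaled with TMM factors (edgeR 4.0.16, R 4.3.3). Ratios carry 95% exact conditional (Clopper-Pearson) intervals. Reads without molecular identifiers are not independent molecules, so intervals cover counting error only. A count of 0 would enter as 3 counts. The additive model used edgeR's quasi-likelihood test with Benjamini-Hochberg adjustment at 0.05 (rows reaching 30 counts in 1 library or more), and DESeq2 1.42.0 and limma 3.58.1 (prior count 2) as alternatives. Its p-values measure only the spread between these libraries. Intervals were run on simulated Poisson counts, which hold no spread beyond counting error, and the model on simulated counts with added spread. These runs checked the calculations only. Sequences came from RefSeq by miRNA name, which matched 673 of 847 rows. The members, lists and rules were chosen with earlier results of these data known, and 1 list is not reported here. Named miRNAs are the members, their 5 nearest profiles, and list members with at least 100 counts in some library, up to 4 a list by mean CPM; rows or pairs named outside this rule were chosen after their values were seen. Counts of miR-221-3p and miR-222-3p matched those of 0 other rows within 3% or 2 counts.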

Additional observations from a re-analysis of the deposited data

Results flagged for a closer look

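In AML spleen the level of each 3p arm was below that of normal spleen, while in AML BM it was above that of normal BM, and each interval excluded equality. The log2 AML ratio of miR-221-3p was -0.998 in spleen and 0.31 in BM, and that of miR-222-3p was -0.66 in spleen and 0.14 in BM. With 1 library per group this difference between tissues was not tested over mice. The BM ratios are small, and 54.2% of compared miRNAs had a BM ratio below that of miR-222-3p.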

How the results depend on the processing

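Of 85 values that an alternative could change, 76 kept their direction and their side of the threshold or, for counts and shares, their range. Left out of these are count minimums for the 3p arms, whose counts all exceed them. With DESeq2 size factors miR-221-3p became a call in AML spleen against normal spleen (-1.24) and in normal spleen against normal BM (1.01), and the sum of the 3p arms became one in AML spleen against normal spleen (-1.09). The sum of the 3p arms in normal spleen against normal BM changed sign, to 0.20 with DESeq2 size factors and to 0.15 when totals left out the 10 most abundant miRNAs, where these scalings moved all ratios by 0.24 and 0.18. The tissue effect of the additive model had 12 calls with DESeq2 against 0 with edgeR, and the cause was not tested. Among the 5p arms, a minimum of 10 counts made miR-222-5p a call in normal spleen against normal BM (-2.38) and in AML spleen against AML BM (-1.46). The interval of the miR-221-5p gap between tissues, 1.72 [0.10 to 3.33], included 0 with DESeq2 size factors (1.45). Over all miRNAs, 55, 100, 155 and 74 calls became 93, 151, 212 and 113 with a minimum of 10 counts and 24, 64, 96 and 37 with one of 100, as more or fewer miRNAs are then compared. The order is AML against normal in BM and in spleen, then spleen against BM in normal and in AML libraries. Nearest profiles, also left out, cannot change with scaling, which shifts all miRNAs of a library alike. No paired analysis was possible because each group has 1 library. Leaving out a library was not run, since it leaves a comparison without a partner and the model without residual degrees of freedom. Depth limits the 5p arms, with at most 20 counts.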
